A study of Mus musculus with 19 samples.

Results

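Transcripts of 10 genes that endothelial cells of the blood-brain barrier use were followed through RNA sequencing of the cerebral cortex of male P301S/E4 mice, of 55487 genes in the deposited tables. The genes were chosen by name, with earlier results of these data known. They are the junction genes Cldn5, Ocln, Cdh5 and Pecam1 and the transporters Slc2a1, Mfsd2a, Slco1a4 and Abcb1a. The VEGF receptor gene Flt1 and the clotting factor gene Vwf complete the set. Lemborexant, a blocker of both orexin receptors that is prescribed for insomnia, had been given to the mice of 10 libraries, and vehicle to the mice of 9. Mice of the lemborexant group received 30 mg/kg by gavage each day at zeitgeber time 13 (in hours of the light cycle), and mice of the vehicle group received 0.5% methylcellulose by the same route. Dosing ran between 7.5 and 9.5 months of age, and all mice of both groups carried the P301S/E4 genotype and were recorded as 41 weeks old. The name stands for a mutant human tau that forms tangles and for human apolipoprotein E4, and the labels give neither the promoter of the tau transgene nor a group without it. Whether every library stems from its own mouse is not in the labels, and p-values therefore reflect how far these libraries spread.

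The blood-brain barrier is formed by brain endothelial cells, which are sealed to each other by tight junctions, take up few vesicles from the blood and carry nutrients in and drugs out through dedicated transporters. Pericytes and astrocyte endfeet lie against these cells, and Wnt signals from neighbouring cells keep the barrier programme switched on. Cortex holds few endothelial cells among its neurons and glia. In whole tissue, fewer endothelial cells and less of a transcript per cell cannot be told apart.

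Of the 10 genes, 7 had a promoter in the RefSeq table for GRCm38.p6, and 3 are shown because their transcripts behaved differently over all libraries. Flt1 and Slco1a4 belong to the genes that varied together across libraries, and over all libraries Cldn5 did not follow them. Each run gives the 250 bases before the annotated start, 5′ to 3′ on the gene's own strand, with the core letters GGAA or their complement TTCC, which the ETS factors of endothelial cells recognise, in capitals. The Flt1 window is chr5:147726012-147726261 on the minus strand, the Slco1a4 window chr6:141856221-141856470 on the minus strand and the Cldn5 window chr16:18776597-18776846 on the plus strand.
Flt1: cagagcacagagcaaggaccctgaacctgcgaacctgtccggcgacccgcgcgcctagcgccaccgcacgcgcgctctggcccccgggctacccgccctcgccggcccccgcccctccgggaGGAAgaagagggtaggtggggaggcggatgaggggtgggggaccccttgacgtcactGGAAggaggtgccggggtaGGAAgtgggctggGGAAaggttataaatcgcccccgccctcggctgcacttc
Slco1a4: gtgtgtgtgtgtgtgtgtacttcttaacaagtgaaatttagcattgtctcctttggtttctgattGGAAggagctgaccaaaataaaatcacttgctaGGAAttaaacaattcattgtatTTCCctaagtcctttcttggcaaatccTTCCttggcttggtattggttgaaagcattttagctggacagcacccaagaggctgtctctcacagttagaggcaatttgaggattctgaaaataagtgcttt
Cldn5: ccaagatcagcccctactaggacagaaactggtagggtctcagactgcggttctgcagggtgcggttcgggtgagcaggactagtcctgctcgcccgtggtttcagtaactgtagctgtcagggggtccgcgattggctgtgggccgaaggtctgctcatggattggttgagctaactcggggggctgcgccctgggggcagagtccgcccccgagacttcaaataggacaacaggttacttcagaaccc
The Flt1 window held 4 of these cores and was rich in G and C (70.4%), the Slco1a4 window held 4 and was poor in them (39.2%), and the Cldn5 window held 0 at 59.6% G and C. Of 32851 promoter windows of that length in the table, 93.4% held GGAA on either strand. Among the 8 windows of the 7 genes, those of Cldn5 and Slc2a1 lacked it and are the less usual ones. Over 19 libraries Slc2a1 had a Pearson r of 0.579 to 0.714 with Cdh5, Abcb1a, Flt1 and Slco1a4, and Cldn5 had 0.0608 to 0.248. Without the libraries over 5% ribosomal RNA, described below, Slc2a1 had 0.403 to 0.548 and Cldn5 0.397 to 0.413. Mfsd2a, with 2 cores, had -0.0763 to 0.0809 with the same genes over 19 libraries. Whether the cores bear on which genes varied together was not tested. The longer form AGGAAGT, which contains the core, was found once in Flt1 and in 7.69% of all windows, and TATAAA once in Flt1 and in 12.4%. The SOX letters AACAAT were found once in Slco1a4 (9.42% of all windows) and ACAAAG once in Abcb1a (16.5%). The TCF/LEF letters CTTTGA were found 2 times in Abcb1a and once in Mfsd2a (13.8%), the forkhead letters TGTTTAC once in Abcb1a (3.17%) and the KLF letters CCACACCC in none of the 7 genes (3.20%). All motifs were searched on both strands, and a match describes the letters and no bound factor.

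Estimated reads on genes numbered 20185098 to 31795633 per library, and each of the 10 genes had between 69 and 3846 reads in every library. Lemborexant libraries 1 and 10, 3 and 8, and 4 and 9 were nearly alike, with a chi-square of counts, divided by its degrees of freedom, between 3.08 and 3.66. The other 168 pairs of libraries had 12.2 to 274. The 10 genes differed within these 3 pairs by a median of 0.11 on the log2 scale, and between other lemborexant libraries by 0.35. The pairs were counted as separate libraries, as labelled, and also summed. Lemborexant libraries 1 and 10 and vehicle libraries 1 and 4 had almost no Cst7, a transcript of microglia that respond to pathology (at most 0.253 CPM against 16.4 to 144 CPM in the other 15, where CPM are counts scaled to a common library size), and 430.5 to 581.5 CPM of the astrocyte transcript Gfap against 3023 to 8699 CPM. These 4 libraries stand apart from the rest of a group labelled with 1 genotype. Tissue markers also differed between libraries: the summed level of 9 hippocampal genes was 103 to 393 CPM in lemborexant and 310 to 512 CPM in vehicle libraries, and that of 10 choroid plexus genes was 262 to 13830 CPM and 182 to 11410 CPM. A list of thalamus and hypothalamus genes summed to 101 to 2538 CPM in lemborexant and 68.5 to 130 CPM in vehicle libraries, and 6 of its 7 tested genes passed as higher (median log2 change 1.07). Of these, Avp, Pmch and Trh had lemborexant medians of 0.63, 0.51 and 1.94 CPM and highest values of 454, 1173 and 205 CPM. Tcf7l2, Rgs16 and Rora had medians of 61.4, 9.905 and 64.1 CPM in lemborexant and 38.5, 5.95 and 39.3 CPM in vehicle libraries. A hepatocyte list with 4 tested genes, all 4 passing as lower, summed to 1.87 to 7.13 CPM in lemborexant and 1.62 to 1273 CPM in vehicle libraries. The medians of this sum were 2.92 and 5.135 CPM. The part of these differences in the results below was not tested.

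No barrier gene differed between lemborexant and vehicle past an adjusted p of 0.05 (edgeR's quasi-likelihood test over 19105 genes), while 2.61% of all tested genes did, 0.953% higher and the rest lower. DESeq2 also called 0 of the 10, where it called 1825 of 37752 genes. In voom, an alternative test that weights libraries by quality, Slco1a4 and Abcb1a passed, where 5.91% of all genes were called higher. The log2 change was above 0 for 9 of the 10 genes, as it was for 53.6% of all genes, and its median was 0.28 against 0.03 over all genes. At an unadjusted p under 0.05, 6 of the 10 were higher (Vwf, Cdh5, Abcb1a, Flt1, Pecam1 and Slco1a4), against 12.2% of all genes (25.7% in either direction). Earlier results were known when the genes were chosen, so these shares are a description and no test of the 10 as a list. Lemborexant and vehicle ranges overlapped for all 10 genes, and failed to overlap for 0.194% of all genes. With the nearly alike pairs summed, 9 of 10 were still above 0 and 6 at an unadjusted p under 0.05, while edgeR called 0 of all genes (4102 at an unadjusted p under 0.05, and 10.5% of genes higher at that p). Without the 4 libraries low in Cst7 these counts were 9 and 4, where 11.9% of all genes were higher at that p. Without the 4 libraries richest in ribosomal RNA, described below, they were 10 and 4, where 7.24% were.

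**Figure D1:**
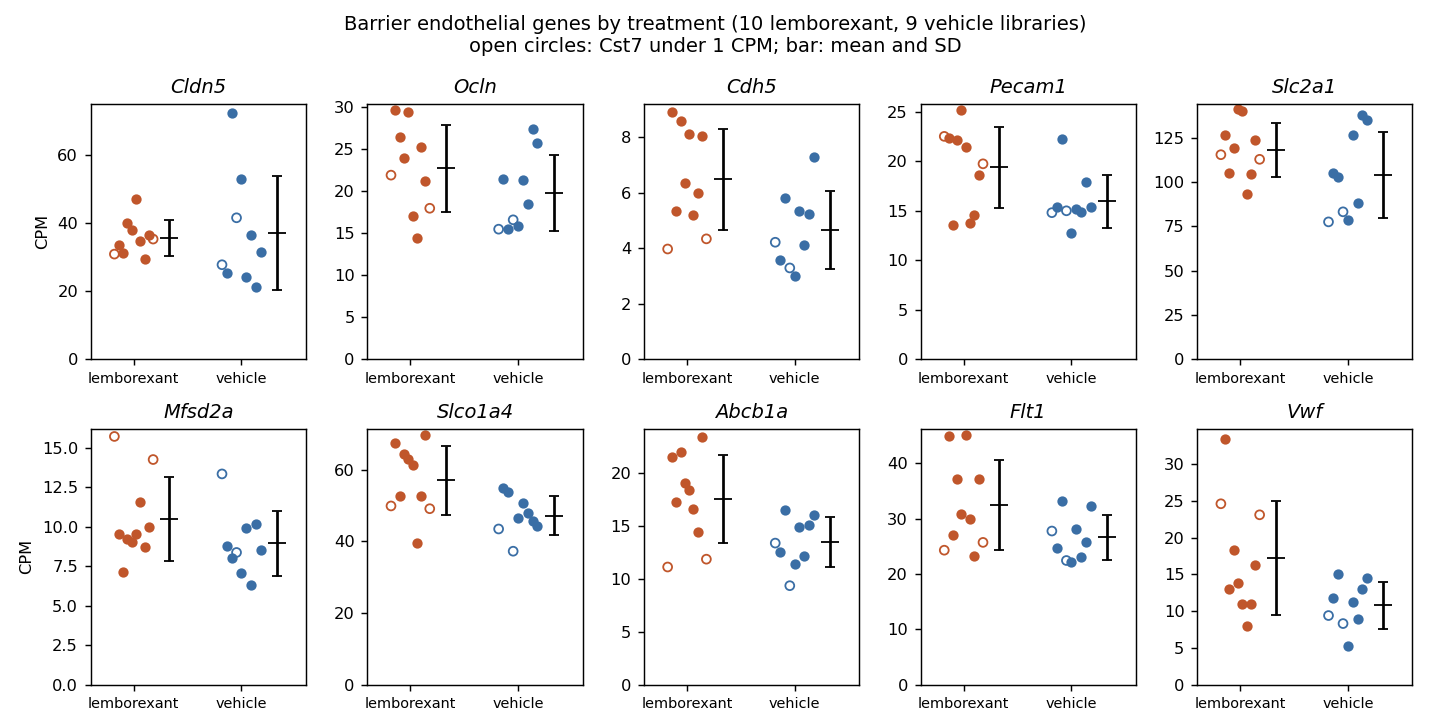
Level in CPM (vertical axes, from 0) of each of the 10 genes in 10 lemborexant and 9 vehicle libraries, 1 point per library, with mean and SD as bars and open circles for the 4 libraries with under 1 CPM of Cst7. Ranges overlap in every panel; Abcb1a has 7 lemborexant points above the highest vehicle point at 16.5 CPM, and Cldn5 has its highest point, 72.4 CPM, in a vehicle library.

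Among the junction genes, Cldn5 had the smallest log2 change. It encodes claudin-5, the main tight junction protein of brain endothelium, and lies at chr16:18776847-18778262 (GRCm38). Its level was 29.5 to 47.0 CPM in lemborexant libraries, with a median of 35.0 CPM, and 21.2 to 72.4 CPM in vehicle libraries, with a median of 31.6 CPM. The vehicle libraries spread over the whole lemborexant range and beyond it at both ends. Means were 35.6 ± 5.18 CPM (SD, n = 10) and 37.1 ± 16.6 CPM (SD, n = 9). The log2 change was -0.06 ± 0.19 (SE; 95% interval -0.45 to 0.33; edgeR adjusted p = 0.874).

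Ocln encodes occludin, a second membrane protein of the tight junction, and had 14.4 to 29.6 CPM (median 22.9) in lemborexant libraries against 15.45 to 27.4 CPM (median 18.4) in vehicle libraries. Highest were lemborexant libraries 2 and 5, and 2 lemborexant libraries lay above all vehicle libraries. Its log2 change was 0.20 ± 0.15 (SE; 95% interval -0.10 to 0.50; edgeR adjusted p = 0.392).

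Cdh5 encodes VE-cadherin, the adhesion molecule that holds endothelial cells to each other below the tight junctions. It had 3.97 to 8.91 CPM (median 6.16) in lemborexant libraries and 2.995 to 7.30 CPM (median 4.22) in vehicle libraries. The highest were lemborexant libraries 2, 4, 6 and 9, of which 4 and 9 are a nearly alike pair, and all 4 lay above every vehicle library. Means were 6.48 ± 1.81 CPM (SD, n = 10) and 4.66 ± 1.39 CPM (SD, n = 9). The log2 change of Cdh5 was 0.48 ± 0.19 (SE; 95% interval 0.08 to 0.87; edgeR p = 0.0201, adjusted 0.127).

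Pecam1 encodes CD31, an adhesion molecule of all endothelium that platelets and some leukocytes also carry. Its level was 13.6 to 25.2 CPM (median 20.6) in lemborexant libraries and 12.8 to 22.3 CPM (median 15.2) in vehicle libraries. Vehicle library 3 stood above the other vehicle libraries, and 3 lemborexant libraries exceeded it. The log2 change was 0.28 ± 0.13 (SE; 95% interval 0.02 to 0.55; edgeR adjusted p = 0.171).

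The 4 transporter genes all had a log2 change above 0 and none passed. Slc2a1 encodes GLUT1, which carries glucose across the barrier and is also made by astrocytes. Its level was 93.2 to 141 CPM (median 117) in lemborexant libraries and 77.5 to 138 CPM (median 103) in vehicle libraries. The low end was held by vehicle libraries 1, 4, 5 and 7, all below the lowest lemborexant library, and the upper ends nearly met. Its log2 change was 0.19 ± 0.12 (SE; 95% interval -0.06 to 0.43; edgeR adjusted p = 0.327).

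Mfsd2a, the carrier that brings docosahexaenoic acid into the brain and restrains vesicle traffic through endothelium, had 7.15 to 15.7 CPM (median 9.56) in lemborexant libraries and 6.34 to 13.3 CPM (median 8.55) in vehicle libraries. Its top values were those of lemborexant libraries 1 and 10 and vehicle library 1, 3 of the 4 libraries with almost no Cst7. The log2 change was 0.23 ± 0.15 (SE; 95% interval -0.09 to 0.54; edgeR adjusted p = 0.341).

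Slco1a4 encodes the organic anion transporter OATP1A4 of rodent brain capillaries, at chr6:141805440-141856199. Lemborexant libraries had 39.5 to 69.7 CPM (median 57.1) and vehicle libraries 37.3 to 54.9 CPM (median 46.5). Above all vehicle libraries were 5 lemborexant libraries, 2, 4, 5, 6 and 9, while lemborexant library 7 was near the vehicle minimum. Means were 57.0 ± 9.65 CPM (SD, n = 10) and 47.2 ± 5.47 CPM (SD, n = 9). The difference was 0.27 ± 0.10 (SE; 95% interval 0.06 to 0.48, log2 scale; edgeR p = 0.0127, adjusted 0.104). Other Slco1a genes are close copies, and with all of them summed the log2 change stayed at 0.27 (edgeR adjusted p = 0.113).

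Abcb1a encodes the drug efflux pump P-glycoprotein, which in mice is made from this gene at the barrier, and had 11.1 to 23.5 CPM (median 17.8) in lemborexant libraries against 9.37 to 16.5 CPM (median 13.4) in vehicle libraries. Above the highest vehicle library were 7 lemborexant libraries, and below the other lemborexant libraries were 1 and 10, at 11.1 and 11.9 CPM. Means were 17.6 ± 4.19 CPM (SD, n = 10) and 13.5 ± 2.36 CPM (SD, n = 9). On the log2 scale the change was 0.38 ± 0.14 (SE; 95% interval 0.09 to 0.68; edgeR p = 0.0136, adjusted 0.106). Without the unit of libraries 1 and 10 and with the other pairs summed, it was the 1 gene of the 10 that passed (log2 change 0.50, edgeR adjusted p = 0.0398; 0.0398 to 0.9996 over all alternatives), where 1.66% of all genes were called higher. That setting was added after seeing the data and removes the lowest lemborexant libraries for this gene, while low Cst7 vehicle libraries stay. With all pairs summed Abcb1a had an edgeR adjusted p of 0.139. With the libraries low in Cst7 of both treatments also left out it had 0.0873. The near copy Abcb1b had a log2 change of -0.01 (edgeR adjusted p = 0.980), and for the sum of the copies it was 0.29 (edgeR adjusted p = 0.175).

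Flt1 encodes VEGFR1, a receptor that binds VEGF-A and in its soluble form takes it out of circulation, and lies at chr5:147561604-147726011. It had 23.3 to 45.0 CPM (median 30.4) in lemborexant libraries and 22.2 to 33.2 CPM (median 25.9) in vehicle libraries. Lemborexant libraries 2 and 6 were highest, at 44.9 and 45.0 CPM, and 6 lemborexant libraries lay within the vehicle range. The log2 change was 0.29 ± 0.13 (SE; 95% interval 0.01 to 0.56; edgeR adjusted p = 0.174).

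Vwf encodes von Willebrand factor, which tethers platelets and in brain is strongest in veins, and had the widest spread of the 10. Lemborexant libraries had 8.02 to 33.4 CPM (median 15.0) and vehicle libraries 5.21 to 15.0 CPM (median 11.2). The lemborexant libraries above all vehicle libraries were 2 at 33.4 CPM, the nearly alike 1 and 10 at 24.6 and 23.1 CPM, and the nearly alike 4 and 9 at 18.3 and 16.2 CPM, while 3, 5, 6, 7 and 8 lay within the vehicle range. Means were 17.2 ± 7.78 CPM (SD, n = 10) and 10.8 ± 3.18 CPM (SD, n = 9). This corresponds to a log2 change of 0.67 ± 0.24 (SE; 95% interval 0.17 to 1.17; edgeR p = 0.0111, adjusted 0.0996). It was the only gene of the 10 under an adjusted p of 0.1, where 4.79% of all genes were higher. Without the 4 libraries low in Cst7 its log2 change was 0.45 (edgeR adjusted p = 0.318).

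**Figure D2:**
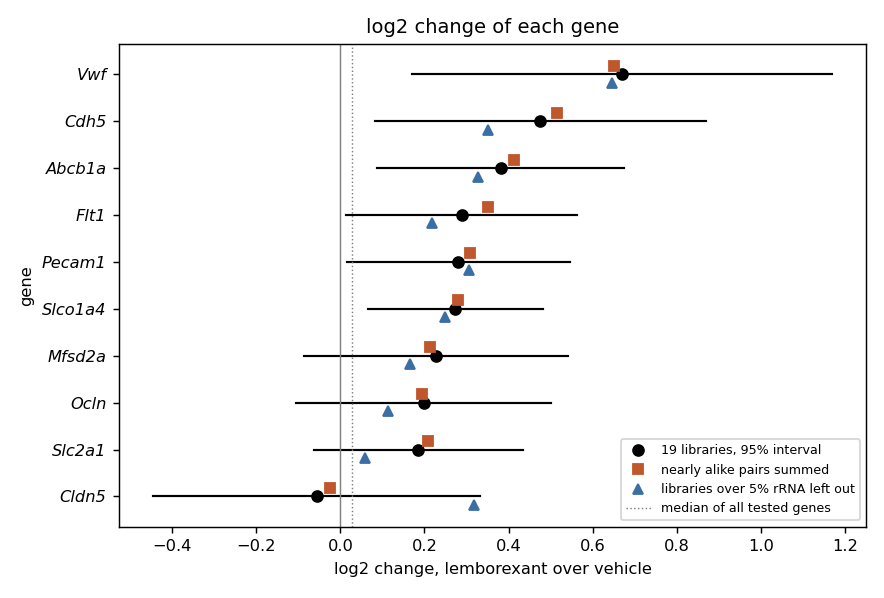
Log2 change, lemborexant over vehicle (horizontal axis), of each gene: black points and lines give the estimate and 95% interval over 19 libraries, squares the fit with nearly alike pairs summed and triangles the fit without the 4 libraries over 5% ribosomal RNA. Of the 10 points, 9 lie above 0, from 0.19 for Slc2a1 to 0.67 for Vwf, and Cldn5 moves from -0.06 to 0.32 without those 4 libraries.

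The libraries carried 2 ranges of numbers, 1064 to 1602 with 7 lemborexant and 7 vehicle libraries and 859 to 933 with 3 and 2. Lemborexant libraries 8, 9 and 10, the 3 of the second range, are the nearly alike partners of 3, 4 and 1 in the first. Comparisons between the ranges, which took these libraries as separate, are therefore not independent on the lemborexant side. The vehicle side of the second range rests on vehicle libraries 8 and 9. Within the first range 9 of the 10 genes had a log2 change above 0, and within the second 6 did. In the range 859 to 933 the log2 changes of Ocln (-0.30), Slc2a1 (-0.26), Cdh5 (-0.03) and Flt1 (-0.0126) were below 0 and that of Cldn5 was 0.36. The difference between the ranges did not pass for any of the 10 genes (edgeR interaction, adjusted p of at least 0.920; Slc2a1 unadjusted p = 0.0168 and Ocln 0.0304), and 0 of 19105 genes passed.

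Per length, as deposited TPM, transcript levels scaled by gene length and library total, the order of the levels was Slc2a1 with a median over libraries of 62.5 TPM (29.8 to 76.6), Cldn5 with 40.7 TPM (25.3 to 63.1) and Slco1a4 with 28.9 TPM (15.5 to 42.3). Slc2a1 was above Cldn5 in 16 of 19 libraries, Cldn5 above Slco1a4 in 16 and Slco1a4 above Ocln in all 19. Next came Ocln at 10.7 TPM, Vwf at 8.19 TPM, Pecam1 at 7.06 TPM, Mfsd2a at 6.69 TPM, Flt1 at 6.32 TPM and Abcb1a at 6.19 TPM. Neighbours in this stretch were not separated in every library: Ocln exceeded Vwf in 12, Vwf exceeded Pecam1 in 12 and Pecam1 exceeded Mfsd2a in 14 of 19. Genes further apart were separated in more of them, with Ocln above Pecam1 in 17, above Flt1 in 17 and above Abcb1a in 18. Mfsd2a, Flt1 and Abcb1a changed places from library to library, since Mfsd2a exceeded each of the others in 10 and Flt1 exceeded Abcb1a in 9. Cdh5 was last, at 2.06 TPM (0.736 to 3.41), and below Abcb1a in all 19.

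Cldn5 was at its highest in the libraries with the largest share of reads on ribosomal RNA genes. This share was over 5% in 4 libraries, lemborexant 6 and vehicle 3, 4 and 5 (5.49 to 6.90%), and 2.40 to 4.68% in the other 15. Cldn5 was at 41.5 to 72.4 CPM (median 50.03) in those 4 and at 21.2 to 40.1 CPM (median 31.6) in the other 15, with no overlap, and all 4 lay above the others for 7.50% of all tested genes as well. Ocln was at 15.5 to 17.0 CPM in the 4 libraries and at 14.4 to 29.6 CPM in the other 15, and the ranges of the other 8 genes also overlapped. The share had a median of 2.76% in lemborexant and 3.82% in vehicle libraries, and of 2.745% and 3.199% without those 4.

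Without these 4 libraries Cldn5 had a log2 change of 0.32 (edgeR p = 0.00952, adjusted 0.239), the opposite sign to the one over 19 libraries, and edgeR called 0 of 19632 genes (2599 at an unadjusted p under 0.05). The sign also turned without vehicle library 3 (0.12) or vehicle library 5 (0.02), and with voom's quality weights, which give outlying libraries less say (0.27). It turned on log2(TPM + 1) as well (0.26), where the median over all genes was itself 0.18. Whether the share of ribosomal RNA bears on the Cldn5 level was not tested.

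**Figure D3:**
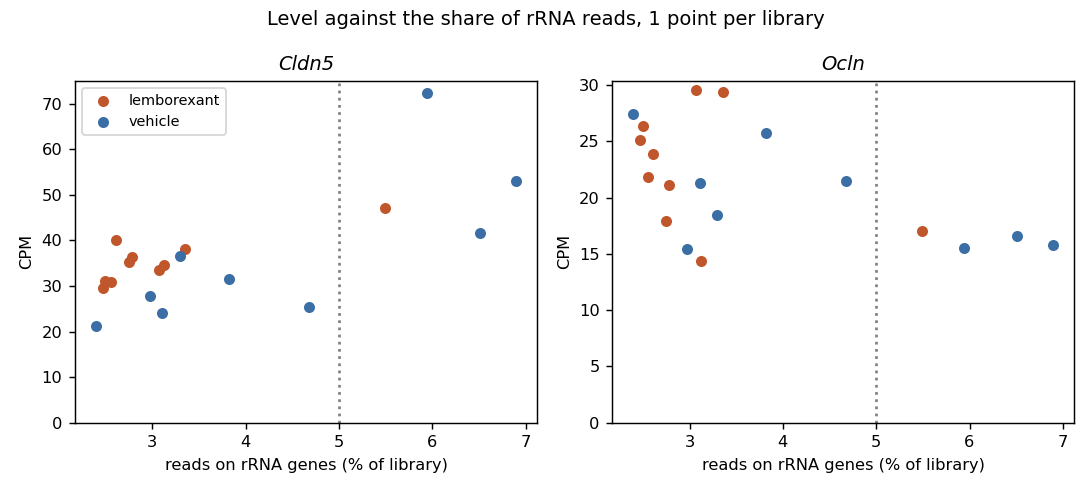
Level in CPM (vertical axes, from 0) of Cldn5, left, and Ocln, right, against the percentage of reads on ribosomal RNA genes in each of 10 lemborexant and 9 vehicle libraries; the dotted line marks 5%. The 4 libraries beyond the line have 41.5 to 72.4 CPM of Cldn5 and lie above all others, and have 15.5 to 17.0 CPM of Ocln.

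Between libraries with at least 1 CPM of Cst7 and those under 1 CPM, the ranges of all 10 barrier genes overlapped. The first set held 15 libraries (8 lemborexant, 7 vehicle) and the second held 4, which are 3 units when the nearly alike lemborexant 1 and 10 are taken as 1. Over all tested genes 8.59% had ranges that did not overlap, 1209 genes higher and 433 lower with at least 1 CPM of Cst7. This split is made from a measured transcript and not from a label, so it is a description with no test. Medians were higher with at least 1 CPM of Cst7 for 7 of the 10 genes, against 48.6% of all genes, and the median log2 ratio of medians was 0.22 against -0.01.

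The clearest offsets were those of Abcb1a and Cdh5 in 1 direction and Mfsd2a in the other. Abcb1a was at 11.4 to 23.5 CPM (median 16.5) with at least 1 CPM of Cst7 and at 9.37 to 13.4 CPM (median 11.5) under it, and 2 of the 4 low libraries were below all 15 others. Cdh5 was at 2.995 to 8.91 CPM (median 5.82) against 3.29 to 4.34 CPM (median 4.10), so the 4 low libraries fell in the lower part of the range of the others. Mfsd2a was at 6.34 to 11.6 CPM (median 9.06) with at least 1 CPM of Cst7 and at 8.37 to 15.7 CPM (median 13.8) under it. Lemborexant 1 and 10 and vehicle 1 had 15.7, 14.2 and 13.3 CPM of Mfsd2a, above all 15 other libraries, and vehicle 4, which is also rich in ribosomal RNA, had 8.37 CPM. Vehicle 4 was the only low library within the range of the others, so leaving it out by itself ends the overlap of the Mfsd2a ranges. The same was then the case for 15.5% of all genes. Vehicle 4 was picked after its value was seen, and lemborexant 1 and 10 are nearly alike, so this is a description only.

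The other 7 genes lay closer together. Slc2a1 was at 78.8 to 141 CPM (median 119) with at least 1 CPM of Cst7 and at 77.5 to 115 CPM (median 98.0) under it, and Slco1a4 at 39.5 to 69.7 CPM (median 52.8) and 37.3 to 49.9 CPM (median 46.3). Ocln medians were 21.4 and 17.3 CPM and Flt1 medians 29.9 and 25.0 CPM. Cldn5 medians were 34.6 and 33.1 CPM, Pecam1 medians 15.4 and 17.4 CPM and Vwf medians 13 and 16.3 CPM. In Vwf the nearly alike lemborexant 1 and 10 had 24.6 and 23.1 CPM, and vehicle 1 and 4 had 9.42 and 8.33 CPM. The lemborexant values come from that pair alone, so they are a description, and a treatment difference among low libraries was not tested.

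**Figure D4:**
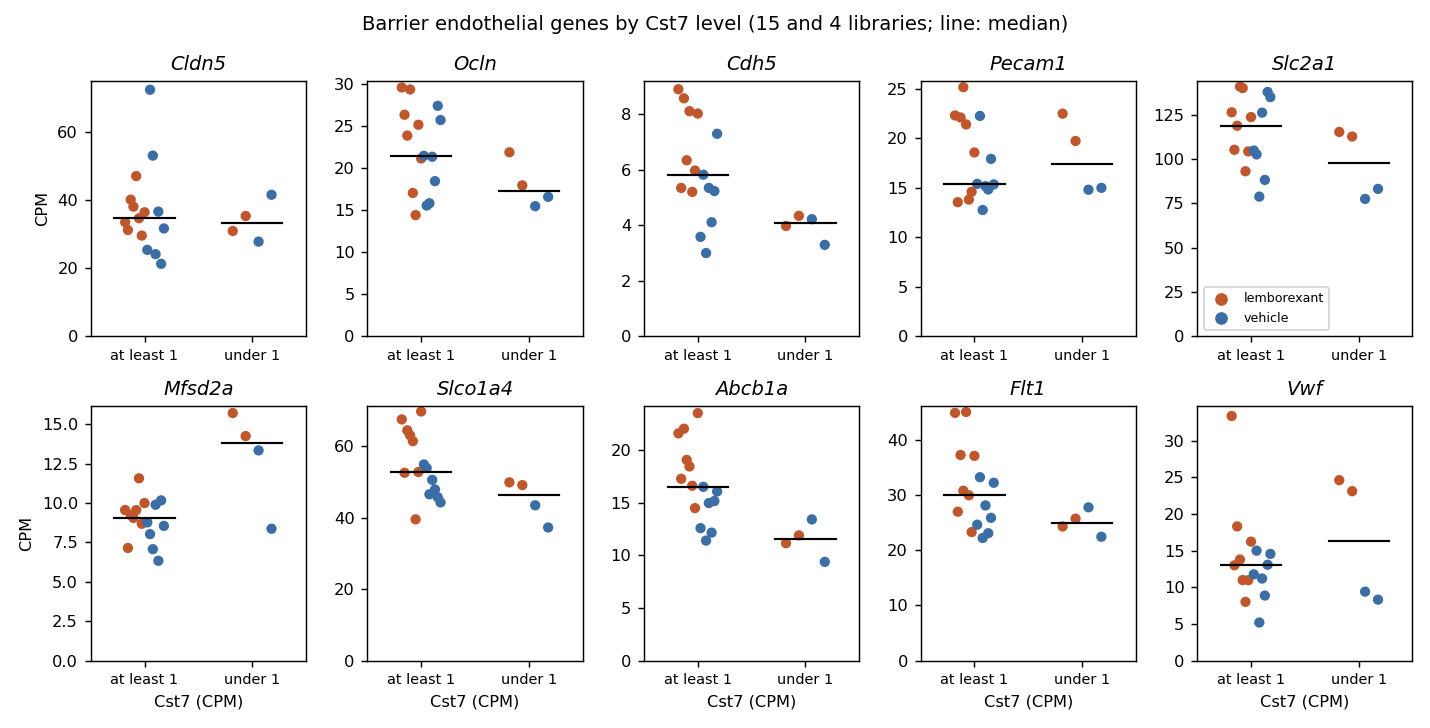
Level in CPM (vertical axes, from 0) of the 10 genes in 15 libraries with at least 1 CPM of Cst7 and 4 libraries under 1 CPM, coloured by treatment, with the median of each set as a line. All ranges overlap, with the low libraries mostly above the others for Mfsd2a (medians 9.06 and 13.8 CPM) and low in the range for Abcb1a (16.5 and 11.5 CPM).

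Across the 19 libraries, Cdh5, Abcb1a, Flt1 and Slco1a4 varied together most closely. This set of 4 was chosen after the values were seen, and its 6 pairs had a Pearson r of log2 CPM of 0.665 to 0.917 (Spearman 0.572 to 0.881). Cdh5 and Abcb1a were the closest pair (r = 0.917), then Cdh5 and Flt1 (0.879). Over 16 units, with each nearly alike pair averaged, the 6 pairs had r of 0.655 to 0.928, and without the 4 libraries over 5% ribosomal RNA 0.587 to 0.908. The libraries share treatment and tissue composition, so these values describe likeness and carry no p.

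All 45 pairs of the 10 genes had a median r of 0.479, and 8 were negative. Vwf was most like Pecam1 (0.725), and Ocln most like Slc2a1 (0.675). Cldn5 stood outside, with r of -0.474 with Ocln to 0.266 with Pecam1, and so did Mfsd2a, with -0.328 with Cldn5 to 0.443 with Vwf. Without the 4 libraries over 5% ribosomal RNA, Cldn5 had r of 0.397 to 0.413 with Cdh5, Abcb1a, Flt1 and Slco1a4. Over libraries the SD of log2 CPM was 0.25 for Slco1a4, the steadiest, to 0.63 for Vwf, and 7 of the 10 were below the median of tested genes (0.38).

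**Figure D5:**
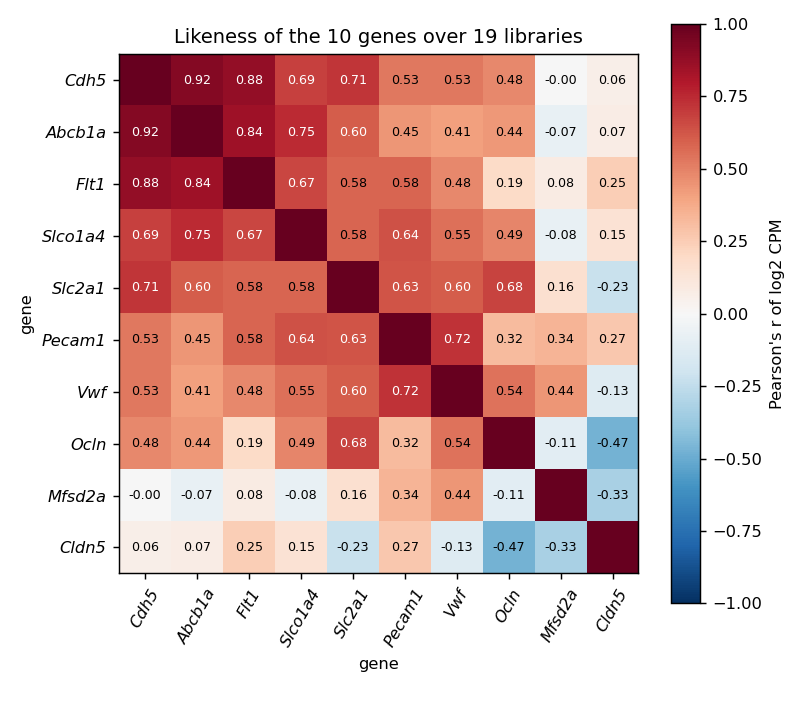
Pearson's r of log2 CPM between each pair of the 10 genes over 19 libraries, as colour and number. Cdh5, Abcb1a, Flt1 and Slco1a4 form the upper left block (0.665 to 0.917), and the last 2 rows, Mfsd2a and Cldn5, are pale or blue against most genes.

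Of 14153 other protein-coding genes with a mean of at least 1 CPM, those most like the mean of the 10 over 16 units were Stab1 (r = 0.94), Ptgds (0.935), Ms4a4a (0.93), Ifitm1 (0.926), Mrc1 (0.91), Cbr2 (0.891), Podxl (0.887) and Yap1 (0.886). Of these, Ptgds (log2 change 1.16, edgeR adjusted p = 0.0417), Mrc1 (1.41, adjusted p = 0.0364) and Podxl (0.39, adjusted p = 0.0421) were higher in lemborexant libraries. Of all tested genes 0.953% were called higher. The listed genes were picked for likeness to the mean of the 10, of which 9 had a log2 change above 0. The units came from both treatments, so this choice itself favours genes higher in lemborexant libraries. The calls are therefore a description and no separate result.

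Among 85 other endothelial and barrier genes in 8 lists, 82 were tested and 2 passed, Podxl higher and Ramp2 lower, which at 2 of 82 is near the 2.61% of all genes. Podxl, the sialomucin podocalyxin of the vessel lumen, averaged 15.4 ± 2.42 CPM in lemborexant libraries and 11.7 ± 1.46 CPM in vehicle libraries (SD, n = 10 and 9). Ramp2, which pairs with the calcitonin-like receptor to bind adrenomedullin, averaged 16.4 ± 3.01 CPM and 23.6 ± 5.33 CPM, which was -0.53 ± 0.13 (SE) as a log2 change (edgeR adjusted p = 0.0387). Like Cldn5, Ramp2 was high in the 4 libraries over 5% ribosomal RNA, at 17.9 to 32.5 CPM against 10.04 to 23.9 CPM, and without them its log2 change was -0.35 (edgeR adjusted p = 0.264) and the adjusted p of Podxl was 0.188. With nearly alike pairs summed the adjusted p was 0.107 for Ramp2 and 0.0915 for Podxl. Of the 82 genes 61 had a log2 change above 0, with a median of 0.18, where 53.6% of all genes were above 0. At an unadjusted p under 0.05 were 25, 19 of them higher, where 25.7% of all genes were at that p and 12.2% were higher.

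In the list of other junction genes 9 of 10 had a log2 change above 0 and 0 passed. Cgn, which encodes cingulin of the tight junction plaque, had 0.79 (edgeR adjusted p = 0.0976) and Lsr, which encodes the tricellular junction protein angulin-1, 0.32 (adjusted p = 0.132). Of 13 other transporters 11 were above 0 and 0 passed, with the taurine carrier Slc6a6 at 0.23 and the cationic amino acid carrier Slc7a1 at 0.20 (adjusted p = 0.188 and 0.242). The list of endothelial identity genes, which holds Podxl and Ramp2, had 13 of 18 above 0.

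The Wnt list had 10 of 15 above 0. The ligand Wnt7a, which neural cells send to endothelium, had a log2 change of -0.39 (edgeR adjusted p = 0.114), while Lef1, a transcription factor and target of the pathway, had 0.71 (adjusted p = 0.1004). Among VEGF ligands and receptors 5 of 9 were above 0. Vegfc, a ligand of VEGFR3, had -0.56 (adjusted p = 0.101) and Vegfb, a ligand of the Flt1 receptor, -0.38 (adjusted p = 0.0926), against 0.29 for Flt1.

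Of 8 genes of vesicles and leak 6 were above 0. Cavin1, the coat protein of caveolae, had 0.52 (edgeR adjusted p = 0.05 after rounding, not under the threshold), and Esm1, a secreted proteoglycan of growing vessel tips, 1.08 (adjusted p = 0.0591) at under 1.06 CPM in every lemborexant library. In the leukocyte adhesion list, where Sele and Selp were too low to test, 3 of 4 were above 0, with the venous chemokine-binding receptor Ackr1 at 0.82 (adjusted p = 0.0532) and Vcam1 at 0.37 (adjusted p = 0.361). In the haemostasis list 5 of 6 tested genes were above 0, with thrombomodulin, encoded by Thbd, at 0.64 (adjusted p = 0.0982) and the tissue plasminogen activator gene Plat at 0.28 (adjusted p = 0.188). None of the genes in these 3 lists passed.

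Markers of cells that sit beside the endothelium also had higher medians in lemborexant libraries. The summed level of 9 pericyte genes was 177 to 379 CPM (median 284) in lemborexant libraries and 204 to 285 CPM (median 225) in vehicle libraries, and 7 of 9 had a log2 change above 0. For 10 genes of meningeal and perivascular fibroblasts the sum was 83.2 to 502 CPM (median 268) and 93.3 to 267 CPM (median 155), with 9 of 10 above 0, 7 at an unadjusted p under 0.05, 0 past the threshold and a median log2 change of 0.94. For 6 smooth muscle genes it was 34.2 to 112 CPM (median 51.4) and 33.4 to 84.0 CPM (median 44.5), with 5 of 6 above 0. Lists of other cells leaned the same way, with 6 of 6 oligodendrocyte genes above 0 (median log2 change 0.26) and 10 of 10 choroid plexus genes (0.71). The platelet list and the thalamus and hypothalamus list did too. Summed medians were lower in lemborexant libraries for the microglial, disease-associated microglial, astrocyte, neuronal, erythrocyte, hepatocyte and hippocampal lists. All of these markers were detected, none being at 0 in every library. The part of these cells in the values of the 10 genes was not tested.

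Over 16 units the mean of the 10 genes had a Pearson r of 0.851 with the pericyte list, 0.736 with the fibroblast list and 0.717 with the smooth muscle list. It had 0.66 with the platelet list, 0.592 with oligodendrocyte, 0.456 with choroid plexus, 0.418 with astrocyte and 0.185 with thalamus and hypothalamus genes. It had 0.313 with genes of disease-associated microglia and 0.271 with microglial genes. The negative values were -0.579 with hippocampal, -0.452 with hepatocyte, -0.251 with neuronal and -0.11 with erythrocyte genes. These are descriptions over libraries that share tissue composition and treatment. Platelets also make Vwf and Pecam1 transcripts, and of 5 platelet markers 2 were high enough to test and summed, over the list, to 2.75 to 8.78 CPM in lemborexant and 3.16 to 7.71 CPM in vehicle libraries.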

How the data were processed

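RNA of frozen cortex was purified with TRIzol and Qiagen columns and sequenced from Takara SMARTer Ultra Low libraries, per the labels' protocols. The submitters' processing notes name bcl2fastq, DRAGEN 3.9.3-8 and the build GRCm38. Which annotation, strand setting and read filters applied was not given in the sources used here. Antisense overlap cannot be told apart. The deposited tables hold an estimated count, a TPM value and an effective length (not used) for each gene, per the file headers. GENCODE M21 gave symbols for 55227 identifiers and all coordinates of genes. Promoter windows come from the RefSeq table, and its starts can differ from those of GENCODE. For Slco1a4 the window begins at 141856221, while the gene coordinates end at 141856199.

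Estimated counts were rounded and tested with edgeR 4.0.16 (R 4.3.3) by its robust two-sided quasi-likelihood test, with TMM factors, filterByExpr and Benjamini-Hochberg adjustment over 19105 genes at 0.05. CPM used TMM factors, log2 CPM a prior count of 2, and SE is the size of the log2 change over the square root of F. Ribosomal RNA is the share of reads on genes of the biotypes rRNA and Mt_rRNA. Pairs of libraries were compared over genes with at least 20 reads. Groups came from the treatment labels, and replicates are numbered in accession order. A check of the test on simulated counts drew every library independently, so it did not mimic the nearly alike pairs. With at least 69 reads for each barrier gene, the spread between libraries and not counting sets the precision.

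Alternatives were RLE factors, no filter, DESeq2 1.42.0, limma 3.58.1's voom with quality weights, limma on log2(TPM + 1) and log2(TPM + 0.1) with a mean of at least 1 TPM, each library left out, libraries low in Cst7 left out, lemborexant 7 and vehicle 7 left out, number ranges, a threshold of 0.1 and summed pairs. Leaving out libraries over 5% ribosomal RNA, leaving out the unit of lemborexant 1 and 10 from the summed pairs, combining summed pairs with the libraries low in Cst7 left out, and the interaction with number range were added after seeing the data. All 10 genes are named, and in each list the 2 with the smallest p; Podxl and Ramp2 are both of these for their list. The 8 most alike genes are those with the highest r. The members and lists were chosen with earlier results of these data known.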

Additional observations from a re-analysis of the deposited data

How the results depend on the processing

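Of the 10 barrier genes edgeR called 0; voom called 2 (Slco1a4, adjusted p = 0.0278, and Abcb1a, adjusted p = 0.0425; 5.91% of genes were higher), a threshold of 0.1 called 1 (Vwf), summed pairs without the unit of lemborexant 1 and 10 called 1 (Abcb1a), and leaving out each library 0 to 0. Over all genes the 498 calls became 254 with no filter, 1825 with DESeq2, 2217 with voom, 118 on log2(TPM + 1), 26 on log2(TPM + 0.1), 307 without lemborexant 7 and vehicle 7, 294 with number range as a covariate, 8 in libraries 1064 to 1602, 0 in libraries 859 to 933, 2137 at a threshold of 0.1, 0 with pairs summed, 0 with pairs summed and libraries low in Cst7 left out (3928 at an unadjusted p under 0.05), 818 with pairs summed without the unit of lemborexant 1 and 10, 0 without libraries over 5% ribosomal RNA, and 31 (without lemborexant 9) to 1274 (without vehicle 8) without single libraries. The 2 calls among the 82 listed genes became 1 with no filter, 8 with DESeq2, 13 with voom, 0 on log2(TPM + 0.1), 0 with pairs summed, 1 without libraries low in Cst7, 0 with the number range covariate, 0 within either number range, 10 at a threshold of 0.1, 0 with pairs summed and low Cst7 left out, 1 with pairs summed without lemborexant 1 and 10, 0 without libraries over 5% ribosomal RNA and 0 to 9 without single libraries. Non-overlapping ranges by Cst7 were 0 to 1 of 10 without single libraries. Cldn5 turned to 0.27 with voom, 0.26 on log2(TPM + 1), 0.26 on log2(TPM + 0.1), 0.36 in libraries 859 to 933 and 0.32 without libraries over 5% ribosomal RNA, and ran from -0.13 to 0.12 without single libraries. The median over all genes was 0.18 on log2(TPM + 1) and 0.20 on log2(TPM + 0.1). In libraries 859 to 933 Ocln (-0.30), Cdh5 (-0.03), Slc2a1 (-0.26) and Flt1 (-0.0126) turned. The causes were not tested. No paired analysis was possible because the labels do not match lemborexant libraries with vehicle libraries.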
